A study of Mus musculus with 9 samples.

Results

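RNA sequencing of whole mouse ovaries on postnatal day (PD) 14, 15 and 16 was examined for genes that peaked or dipped on the middle day. The members were the genes whose 3 PD15 libraries all lay above, or all below, the 6 libraries of PD14 and PD16. Of 52025 genes listed, 15495 had a mean above 1 FPKM on at least 1 day and were tested. Of these, 375 were peak genes (2.42%) and 336 were trough genes (2.17%), 711 members in all. FPKM is a level, the mapped fragments of a gene scaled for its exon length and for the depth of the library. The change at PD15 was the mean of log2(FPKM + 1) at PD15 minus the average of the PD14 and PD16 means, and a difference on this scale understates the change of genes near 1 FPKM. A gene was called when its limma p, adjusted by the Benjamini-Hochberg method over all genes tested, was under 0.05. The lack of overlap between libraries chose the members, so it is given as a description and carries no test of its own.

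The mice were of the Kunming stock, untreated, and differed between groups only in age by the labels, with 3 libraries at PD14, 3 at PD15 and 3 at PD16. The study describes the libraries of a day as independent ovaries and does not say whether they came from different mice, so the p-values measure the spread between these ovaries. The labels name ovary as the tissue and granulosa cells as the source. Zp3, a zona pellucida protein made only by oocytes, stood between 263 and 416 FPKM in every library, and the vessel marker Pecam1 between 10.3 and 12.7 FPKM, so the libraries held oocyte and vessel RNA beside that of granulosa cells. In a bulk ovary, fewer cells of a type and less RNA per cell cannot be told apart. Between 20.4 and 28.7 M fragments stood behind a library, 23.8 to 28.7 M at PD15, and scaling factors between libraries ran from 0.992 to 1.01.

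At this age the first wave of follicles grows in synchrony and the first fluid-filled antra appear, which is why the study collected these days. A growing follicle is an oocyte that lays down its zona pellucida and stores maternal RNA, wrapped in granulosa cells that divide and secrete hormones, with theca and interstitial cells around it that start steroid synthesis from cholesterol. A contrast of the middle day with both neighbours sees what goes up and comes back, or down and back, and is blind to a steady course.

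The limma contrast called 20 genes higher at PD15 (0.129% of those tested) and 16 lower (0.103%), and 1839 genes (11.9%) had an unadjusted p under 0.05. Every gene called higher was a peak gene, and 13 of the 16 called lower were trough genes. When a limma adjusted p under 0.05 was required against PD14 and against PD16 separately, 25 of the 36 calls were kept. Among the 7 calls that held in each of the 9 fits with 1 library left out, and in every other setting in which they were tested, were 2 aldo-keto reductases, Akr1c18 and Akr1c19, and the peptide hormone gene Rln3. The oocyte gene Nlrp5 was the only oocyte marker called. Many members moved little. The median change was 0.33 over the peak genes, with 13 above 1 and 114 under 0.25, and -0.22 over the trough genes, with 17 beyond 1 and 183 under 0.25 in size, against a median of -0.0032 over all genes tested, of which 48.8% were higher. Peak genes were low in abundance, with a median level of 3.57 FPKM against 6.49 for trough genes and 7.10 for all genes tested.

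**Figure D1:**
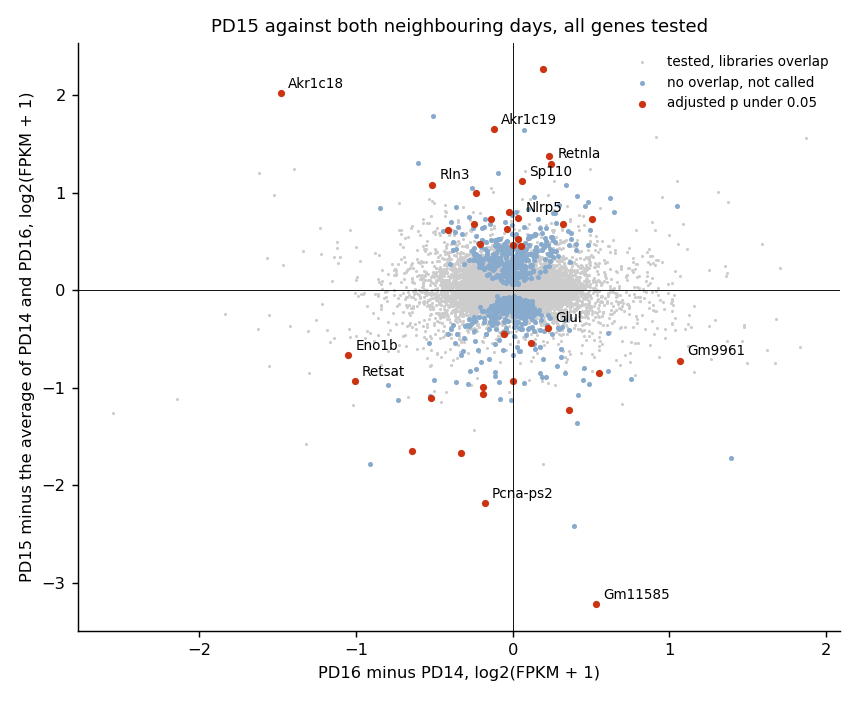
Each dot is 1 of the 15495 genes tested, with its PD16 minus PD14 difference on the x axis and its PD15 difference from the average of both days on the y axis, both as log2(FPKM + 1). Red dots are calls, blue dots are members that were not called (peak genes above 0, trough genes under it), and grey dots are the other genes. Akr1c18 stands at 2.02 upward and Gm11585 at -3.22 downward, and most of the blue dots lie near 0 on the x axis.

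Promoters of 4 called peak genes are shown first, the 250 bases before the start of transcription that RefSeq gives on GRCm38.p6, since Akr1c18, Akr1c19 and Rln3 rose in every fit and Nlrp5 was the oocyte marker called. Akr1c18 lies on the minus strand at chr13:4150647-4150896, Akr1c19 on the plus strand at chr13:4233490-4233739, Rln3 on the minus strand at chr8:84044980-84045229 and Nlrp5 on the plus strand at chr7:23385639-23385888. The Akr1c19 window falls inside an intron of a longer GENCODE transcript. Capitals mark TATAAA, which starts 40 bases before the Rln3 start and was not found on either strand in the other windows.
Akr1c18: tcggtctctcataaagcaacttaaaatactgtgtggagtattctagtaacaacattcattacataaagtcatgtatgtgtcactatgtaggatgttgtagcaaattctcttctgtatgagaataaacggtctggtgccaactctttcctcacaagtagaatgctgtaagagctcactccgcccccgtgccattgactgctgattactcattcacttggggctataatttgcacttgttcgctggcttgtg
Akr1c19: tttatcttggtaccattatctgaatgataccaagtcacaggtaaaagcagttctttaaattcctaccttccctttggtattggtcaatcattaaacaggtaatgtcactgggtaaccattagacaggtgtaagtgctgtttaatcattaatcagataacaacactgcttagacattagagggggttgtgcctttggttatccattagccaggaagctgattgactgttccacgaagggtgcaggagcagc
Rln3: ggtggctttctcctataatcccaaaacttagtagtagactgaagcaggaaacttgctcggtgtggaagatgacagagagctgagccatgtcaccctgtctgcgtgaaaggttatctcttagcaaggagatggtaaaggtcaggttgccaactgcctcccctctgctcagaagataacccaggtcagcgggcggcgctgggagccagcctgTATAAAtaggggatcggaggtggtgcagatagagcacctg
Nlrp5: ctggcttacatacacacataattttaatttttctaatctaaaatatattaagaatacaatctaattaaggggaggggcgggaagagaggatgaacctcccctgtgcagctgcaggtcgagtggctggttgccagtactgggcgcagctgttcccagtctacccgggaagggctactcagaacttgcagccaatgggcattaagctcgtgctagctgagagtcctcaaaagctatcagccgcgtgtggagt

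Searched on both strands in windows of 250 bases, TATAAA stood in 11 of the 181 peak genes with a promoter in the table (6.08%), in 15 of 223 trough genes (6.73%), in 6.31% of the tested genes with a promoter and in 12.98% of all 27025 promoters. The E-box CACGTG stood in 6 peak promoters (3.31%) and 24 trough promoters (10.8%), against 8.56% of tested genes and 6.04% of all promoters. The cyclic AMP response element TGACGTCA stood in 5 peak promoters (2.76%) and 5 trough promoters (2.24%), against 2.73% of tested genes. None of the 3 motifs stood in the windows of Akr1c18, Akr1c19 or Nlrp5. A match or its lack describes only these letters in this window.

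Akr1c18 codes for 20-alpha-hydroxysteroid dehydrogenase, which turns progesterone into an inactive form. The level of Akr1c18 was 10.5, 4.73 and 8.95 FPKM at PD14, 17.9, 19.7 and 23.2 at PD15 and 1.95, 2.55 and 1.89 at PD16. The 3 PD15 ovaries were the highest of the 9, the PD16 ovaries the lowest, and no day overlapped another. The PD15 difference was 2.02 on the log2 scale (SE 0.20, limma adjusted p = 0.00456). Akr1c18 was 1.28 above PD14 (adjusted p = 0.0458) and 2.76 above PD16 (adjusted p = 0.00149), so it peaked on the way to a level below its start. Between 56 and 806 fragments per library lay behind these values.

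Akr1c19, a second aldo-keto reductase of the same gene cluster on chromosome 13, showed the plainest return. At PD14 the libraries held 1.67, 1.72 and 1.59 FPKM of Akr1c19, at PD15 5.90, 6.46 and 9.03, and at PD16 1.53, 1.30 and 1.52. The PD14 and PD16 libraries together ran only from 1.30 to 1.72, and the lowest PD15 library stood far above them. The difference was 1.65 on the log2 scale (SE 0.11, limma adjusted p = 0.00118), the smallest adjusted p among the genes called. Of the 5 Akr1c genes tested, Akr1c14, which makes a 3-alpha-hydroxysteroid dehydrogenase and is the abundant member, had means of 184, 183 and 201 FPKM and a difference of -0.065, and Akr1c13 had -0.20 with wide overlap (adjusted p = 0.882 and 0.945). Akr1c21 had means of 2.02, 2.30 and 1.32 FPKM and a difference of 0.33 (adjusted p = 0.465), also with overlap. Both reductases that peaked lack a copy of at least 95% identity over 200 bases elsewhere in GENCODE M21. Over the 9 fits that each left out 1 library, the adjusted p ran from 0.000996 to 0.0357 for Akr1c18 and from 0.000293 to 0.00604 for Akr1c19.

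The other steroid genes did not share the peak. Of 20 steroid synthesis genes tested, 3 were higher at PD15, Akr1c18 was the only one called, and the median was -0.12 against -0.0032 over all genes tested. Of all genes tested, 48.8% were higher and 0.129% were called higher. Cyp17a1, the enzyme of the androgen branch, had means of 28.9, 21.6 and 37.1 FPKM and a difference of -0.55 (adjusted p = 0.285), and Cyp11a1, which cuts the cholesterol side chain, had 46.8, 25.2 and 32.8 FPKM and -0.60 (adjusted p = 0.460). Neither passed the test. Of the 13 theca and interstitial cell markers, a list that includes Akr1c18, 3 were higher, and their summed level was 1900 to 2541 FPKM at PD14, 1419 to 2054 at PD15 and 1407 to 1884 at PD16. The part of these cells in the Akr1c18 peak was not tested.

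Rln3 codes for relaxin-3, a small peptide hormone of the insulin superfamily. In FPKM, Rln3 ran 9.85, 8.23 and 10.1 over the PD14 libraries, 18.5, 17.5 and 16.2 over those of PD15 and 6.29, 7.02 and 5.58 over those of PD16. All 3 PD15 libraries were above 16 FPKM and no other library reached 11. The difference was 1.08 on the log2 scale (SE 0.083, limma adjusted p = 0.00136), and Rln3 was called with any 1 library left out (adjusted p 0.00148 to 0.0177). The other relaxin family genes tested, Insl3 and Insl6, differed by -0.059 and -0.11 (adjusted p = 0.959 and 0.811). Between 90 and 299 fragments per library stood behind the Rln3 values.

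Nlrp5, also known as MATER, is a maternal effect protein of the oocyte cortex that the embryo needs for its first divisions. Nlrp5 measured 109, 78.7 and 84.5 FPKM at PD14, 153, 144 and 162 at PD15 and 82.3, 93.9 and 101 at PD16. The PD15 ovaries did not overlap the others, and PD14 and PD16 did. The difference was 0.74 on the log2 scale (SE 0.11, limma adjusted p = 0.0330), and this call was the least secure of those named so far, since it was kept in 1 of the 9 fits with 1 library left out (adjusted p 0.00833 without PD14 replicate 1, up to 0.160 in the others) and in 11 of 13 other settings (adjusted p up to 0.117). A stretch of 688 bases of Nlrp5 matches the pseudogene Nlrp5-ps at 97.8% identity, so some fragments could be split between them.

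Of the remaining genes called higher, Sp110 codes for a nuclear body protein of the Sp100 family. Sp110 was at 2.91, 2.17 and 3.50 FPKM in the PD14 libraries, 8.73, 7.08 and 6.76 at PD15 and 2.43, 2.66 and 4.05 at PD16. Its PD15 libraries lay clear of the others, and the difference was 1.12 on the log2 scale (SE 0.15, limma adjusted p = 0.0239). Retnla, a secreted resistin-like protein known from alternatively activated macrophages, was under 1 FPKM in each library outside PD15. The level of Retnla was 0.409, 0.623 and 0.246 FPKM at PD14, 3.55, 2.81 and 2.15 at PD15 and 0.421, 0.737 and 0.920 at PD16. The difference was 1.30 on the log2 scale (SE 0.15, limma adjusted p = 0.0114), and 3 to 54 fragments per library stood behind it. Of the 9 macrophage markers tested, 4 were higher, 0 were called and Csf1r was a trough gene, against 2.17% trough genes among all genes tested. The sum of these markers was 38.1 to 43.9 FPKM at PD14, 45.9 to 52.0 at PD15 and 45.4 to 55.4 at PD16. The part of macrophages in the Retnla peak was not tested. Left out 1 library at a time, Sp110 lost its call without PD15 replicate 1, PD15 replicate 2 or PD16 replicate 2 (adjusted p up to 0.137), and Retnla without PD15 replicate 1 or 2 (up to 0.0882).

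Iglc3, an immunoglobulin light chain constant gene, rested on 7 to 28 fragments per library. At PD14 the libraries held 1.08, 1.01 and 0.760 FPKM of Iglc3, at PD15 1.999, 2.05 and 2.16, and at PD16 0.929, 0.780 and 0.609. The PD15 libraries were tight and lay above the rest, with a difference of 0.73 on the log2 scale (SE 0.094, limma adjusted p = 0.0236), although Iglc3 is 95.1% identical to Iglc2 over its length. The T cell marker Cd3e was at most 0.0515 FPKM in any library, and the B cell genes Ighm and Ms4a1 differed by 0.089 and 0.067 (adjusted p = 0.747 and 0.854). Rasgef1b, an exchange factor for small GTPases, was more abundant. In FPKM, Rasgef1b ran 8.67, 7.69 and 8.67 over the PD14 libraries, 11.9, 10.9 and 10.5 over those of PD15 and 6.72, 7.63 and 6.96 over those of PD16. It peaked mildly, with no overlap and a difference of 0.47 on the log2 scale (SE 0.062, limma adjusted p = 0.0239). Rasgef1b passed against PD16 (0.57, adjusted p = 0.0182) but not against PD14 (0.37, adjusted p = 0.0630). Iglc3 lost its call without any 1 of the PD15 libraries (adjusted p up to 0.137), and Rasgef1b without PD15 replicate 1 or 2 or PD16 replicate 1 or 3 (also up to 0.137).

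The other genes called higher have little known function. They were the protein coding models Gm6768 and Gm5065, the pseudogene Gm15753, the noncoding or unclassified RNAs Gm11827, Gm42847, Gm45810 and 1700030C10Rik, and 5 unannotated loci, which the deposited tables name only by a running number. Their differences ran from 0.45 for Gm11827 to 2.26 for 1 of the unannotated loci. This locus measured 0.169, 0.0572 and 0 FPKM at PD14, 4.34, 2.90 and 7.07 at PD15 and 0.348, 0.243 and 0.109 at PD16. It was nearly silent outside PD15, and its difference was 2.26 on the log2 scale (SE 0.20, limma adjusted p = 0.00218). Gm6768 is 99.6% identical to Ncoa4, and Gm15753 is 96.5% identical to Sp110. Ncoa4 itself differed by -0.25 (adjusted p = 0.476), in the direction opposite to its copy. Of these 12 calls, the unannotated locus described above was kept in all 9 fits without 1 library, Gm42847 in 8, Gm15753 and 2 unannotated loci in 7, and the 7 others in 1 to 3 (adjusted p up to 0.185). Each of the 11 that lost a call lost it without PD15 replicate 1.

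**Figure D2:**
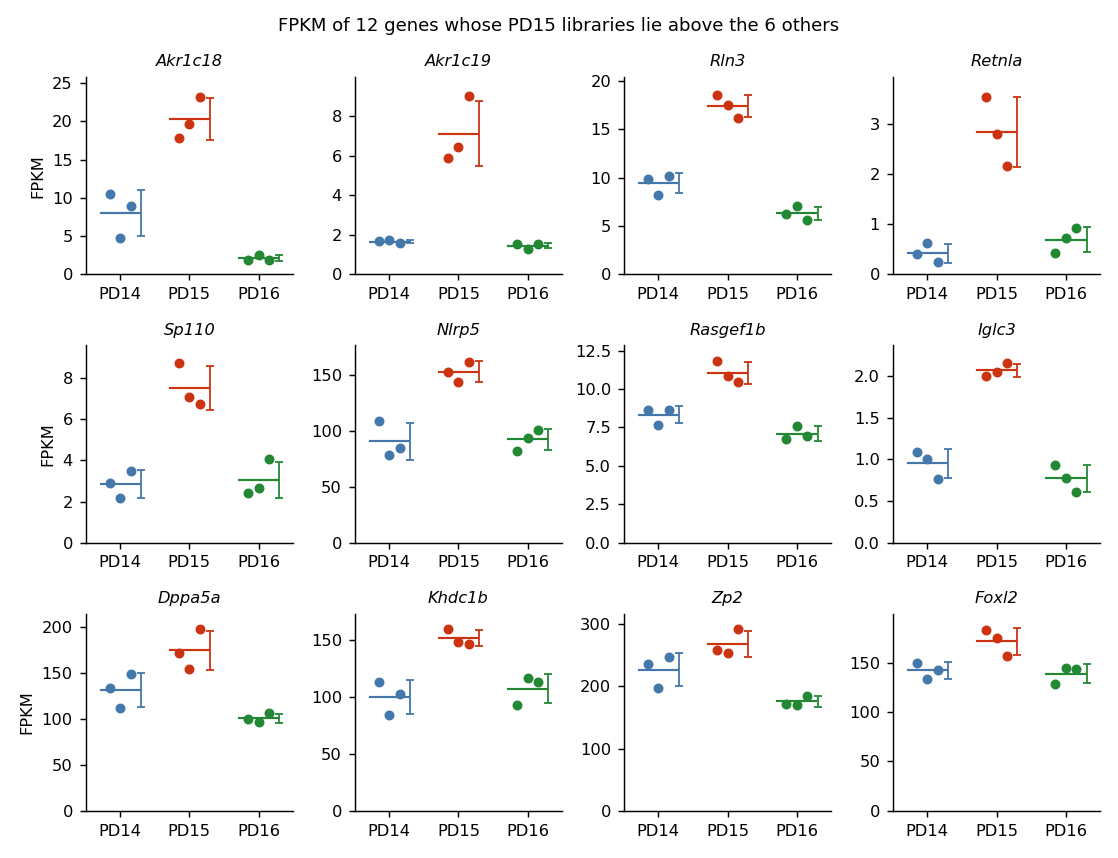
FPKM in each of the 9 libraries (dots) for 12 peak genes, 8 called and 4 not called (Dppa5a, Khdc1b, Zp2 and Foxl2), with each day's mean (line) and SD (bar, 3 libraries). In each panel the 3 PD15 dots lie above the 6 others. Akr1c18 ends below its PD14 level, whereas Akr1c19 and Nlrp5 come back to it.

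Markers of the oocyte were higher together at PD15. Of 26 oocyte markers tested, 25 were higher at PD15, 7 were peak genes, 16 had an unadjusted p under 0.05 and 1 was called. Over all genes tested 48.8% were higher, 2.42% were peak genes and 11.9% had an unadjusted p under 0.05. The median was 0.28 against -0.0032 over all genes tested. The median stayed between 0.19 and 0.31 over the other settings and the fits without 1 library. Their summed level was 2663, 2197 and 2759 FPKM at PD14, 2937, 2819 and 3083 at PD15 and 2112, 2171 and 2255 at PD16. Each PD15 ovary had the higher sum, and PD14 replicate 2 lay near the PD16 ovaries. The 7 peak genes were Nlrp5, Zp2, Oog1, Npm2, Zar1, Oosp1 and Bcl2l10, and Sohlh1, a factor of the youngest follicles, was the one lower marker (-0.057). Between 24 and 26 of the markers were higher in the other settings and the fits without 1 library.

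Zp2, a zona pellucida protein that binds sperm, was among the most abundant peak genes. Zp2 was at 236, 197 and 248 FPKM in the PD14 libraries, 258, 254 and 292 at PD15 and 171, 171 and 185 at PD16. The PD15 libraries barely cleared PD14, and PD16 was the lowest day. Its difference was 0.43 on the log2 scale (SE 0.089, limma adjusted p = 0.10002), so it did not pass. Zp3 and Zp1 had differences of 0.37 and 0.34, with overlap between PD15 and PD14. Npm2, the histone chaperone that the egg stores for sperm chromatin, had means of 152, 179 and 130.2 FPKM, and Zar1, which keeps maternal RNA, had 53.9, 64.1 and 48.4 FPKM. Their differences were 0.35 and 0.33 (adjusted p = 0.199 and 0.128). Gdf9 and Bmp15, the growth factors by which the oocyte drives granulosa cells, overlapped between days at 0.20 and 0.20.

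Further oocyte gene families were looked at after these values were seen. All 10 tested genes of the Nlrp4, Nlrp5, Nlrp9 and Nlrp14 group were higher at PD15, by 0.23 to 0.74. Of these 10 genes 5 were peak genes, against 2.42% of all genes tested, of which 48.8% were higher. Many genes of this group are near neighbours in sequence, so fragments may be shared among them. Of 3 Oog genes tested 2 were higher, with Oog2 at -0.057, and 1 was a peak gene. All 3 Oosp genes were higher, with 2 peak genes, and all 4 Obox genes, with 1. Dppa5a, an RNA-binding protein of germ and stem cells, missed the threshold narrowly. The level of Dppa5a was 134, 112 and 148 FPKM at PD14, 172, 155 and 197 at PD15 and 100.4, 96.2 and 106 at PD16. Its PD15 libraries were the highest and PD16 the lowest, with a difference of 0.59 on the log2 scale (SE 0.10, limma adjusted p = 0.0636). Dppa5a matches 7 other gene models at 95% or more, so its value is uncertain. Khdc1b, a related KH domain gene, had a like shape. At PD14 the libraries held 114, 84.4 and 102 FPKM of Khdc1b, at PD15 159.7, 149 and 146, and at PD16 92.6, 116 and 113. PD15 was clear of both days, with a difference of 0.55 on the log2 scale (SE 0.10, limma adjusted p = 0.0729). Khdc1b, its neighbour Gm2709 and Khdc1a were 3 peak genes among 4 tested at chr1:21349641-21386373, a span set by their own ends. The other gene there, Khdc1c, had means of 56.7, 48.7 and 35.9 FPKM and a difference of 0.079 (limma adjusted p = 0.897), with overlap.

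**Figure D3:**
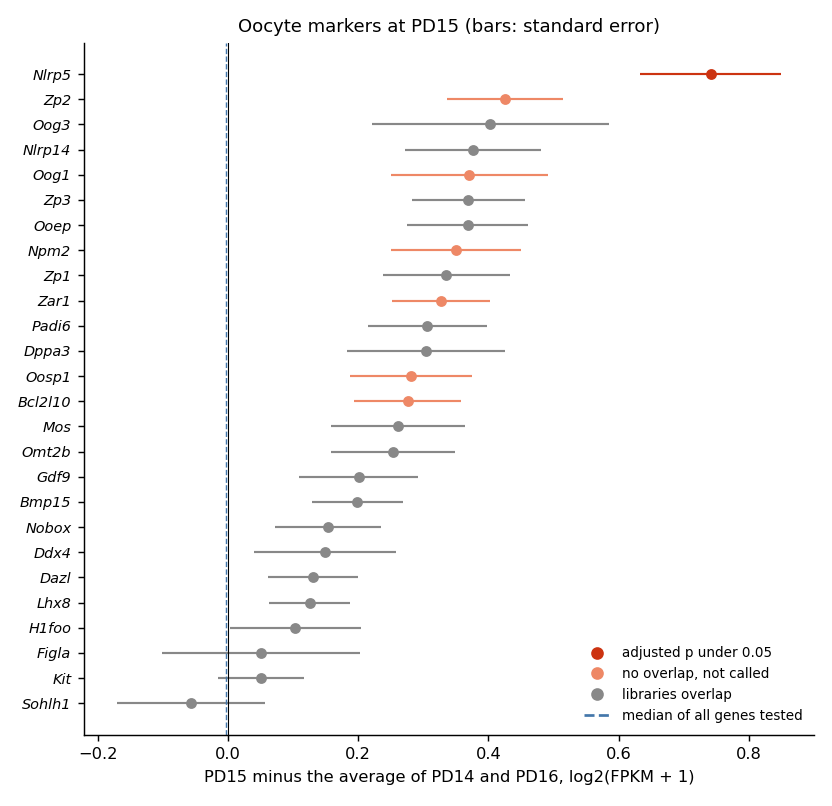
PD15 difference on log2(FPKM + 1) for the 26 oocyte markers, ordered by size, with SE as bars and the median of all genes tested as a dashed line. Nlrp5 at 0.74 is the only call, 6 further markers had no overlap, and 25 of 26 lie above 0.

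Granulosa cell markers went the other way in most cases. Of 19 tested, 5 were higher, 0 were called, and the median was -0.14. An unadjusted p under 0.05 was found for 8 of them, against 11.9% of all genes tested. The summed level of the list was 3909 to 4648 FPKM at PD14, 3697 to 4042 at PD15 and 3919 to 4506 at PD16, and Inha, its most abundant member, had means of 2296, 2008 and 2152 FPKM. Among these markers 2 were peak genes, a number too small to set apart from the 2.42% over all genes tested. Ihh, the hedgehog ligand by which granulosa cells recruit theca cells, was lowest at PD14. In FPKM, Ihh ran 19.0, 18.4 and 15.2 over the PD14 libraries, 32.5, 26.4 and 25.2 over those of PD15 and 24.4, 23.6 and 20.4 over those of PD16. The PD15 libraries just cleared those of PD16, and the difference was 0.47 on the log2 scale (SE 0.099, limma adjusted p = 0.106). Foxl2, the transcription factor that keeps granulosa cell identity, ran close behind. Foxl2 measured 149.9, 133 and 143 FPKM at PD14, 183, 175 and 157 at PD15 and 128, 145 and 143 at PD16. PD15 replicate 3 was the nearest to the other days, and the difference was 0.29 on the log2 scale (SE 0.074, limma adjusted p = 0.167). Neither gene passed the test.

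Among the trough genes called, Glul was the most abundant protein coding gene. Glul makes glutamine synthetase, which fixes ammonia on glutamate. Glul was at 46.2, 45.5 and 44.2 FPKM in the PD14 libraries, 36.6, 40.1 and 35.5 at PD15 and 50.6, 52.9 and 56.3 at PD16. PD15 was the lowest day and PD16 the highest, with a difference of -0.39 on the log2 scale (SE 0.055, limma adjusted p = 0.0321). Glul passed against PD16 (-0.50, adjusted p = 0.0189) but not against PD14 (-0.27, adjusted p = 0.103). Its neighbour Rgs16, a brake on G protein signals and also a trough gene, had -0.42 (adjusted p = 0.221). Glul is 96.8% identical to Glns-ps1 over 1126 bases and kept its call in only 2 of the 9 fits without 1 library, those without PD14 replicate 1 and PD16 replicate 1 (adjusted p up to 0.164 in the others), and in 8 of 13 other settings, with losses under quantile normalization and with the same FPKM total in each library (adjusted p up to 0.0924). Of the 31 interferon response genes tested 0 were members, a number too small to set apart from the 2.42% and 2.17% over all genes tested, and their median was 0.057, with the other sign in 2 of 18 other settings.

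Rasl11a, a small GTPase of the Ras family, and Fam46a, a poly(A) polymerase that lengthens messenger tails, were further coding genes with a trough and a call. The level of Rasl11a was 8.73, 8.20 and 8.71 FPKM at PD14, 5.53, 5.63 and 6.405 at PD15 and 7.76, 8.40 and 8.44 at PD16. Its PD15 libraries lay under both days, which were alike, and the difference was -0.45 on the log2 scale (SE 0.057, limma adjusted p = 0.0201). At PD14 the libraries held 5.19, 5.56 and 6.37 FPKM of Fam46a, at PD15 3.36, 4.27 and 3.78, and at PD16 6.18, 6.33 and 6.27. The same order held for this gene, with a difference of -0.54 on the log2 scale (SE 0.075, limma adjusted p = 0.0275). Rasl11a lost its call without PD15 replicate 1 or 2 (adjusted p up to 0.137). Fam46a kept its call in 3 of the 9 fits without 1 library, and the adjusted p reached 0.137 in the 6 others, of which 2 left out PD15 replicate 1 or 3, 1 PD14 replicate 2 and 3 a PD16 library.

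The gene model 1110032F04Rik and the antisense RNA A530040E14Rik are of unknown role. In FPKM, 1110032F04Rik ran 19.5, 20.1 and 27.4 over the PD14 libraries, 10.3, 11.2 and 11.7 over those of PD15 and 20.9, 18.6 and 27.8 over those of PD16. The 3 PD15 values were alike and far under the rest. Its difference was -0.94 on the log2 scale (SE 0.13, limma adjusted p = 0.0321), and Gm17641, which overlaps it on the opposite strand, had -0.84. The library kit's strand setting is not given in the sources used here, so fragments of these partners cannot be told apart. A530040E14Rik measured 36.3, 24.2 and 34.4 FPKM at PD14, 10.6, 9.42 and 15.0 at PD15 and 19.5, 26.4 and 19.1 at PD16. PD15 was lowest, PD14 was highest, and the difference was -1.11 on the log2 scale (SE 0.17, limma adjusted p = 0.0440). A530040E14Rik passed against PD14 (-1.37, adjusted p = 0.0310) but not against PD16 (-0.85, adjusted p = 0.0910). This RNA shares sequence with 25 other genes and lies in the repeated Sp100 region of chromosome 1. In that region Gm16026, a 97.6% identical copy of Sp110, was also called lower, by -0.997 (adjusted p = 0.0110), and Sp110 itself higher. With 1 library left out, 1110032F04Rik kept its call in 4 of 9 fits (adjusted p up to 0.163), A530040E14Rik in 3, those without PD14 replicate 1, PD14 replicate 2 or PD15 replicate 3 (up to 0.1996), and Gm16026 in 7, all but those without PD15 replicate 1 or 2 (up to 0.0851). The fits that ended the 1110032F04Rik call left out a PD15 library, PD14 replicate 2 or PD16 replicate 1. In 5 of the 13 other settings A530040E14Rik was not called either (adjusted p up to 0.140).

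Among the called genes with a trough were close copies of other genes, Gm11585 with the deepest trough of all. Gm11585 is a processed pseudogene at chr11:102124072-102124640 whose 569 bases are 100% identical to Ppih, a cyclophilin of the spliceosome. Gm11585 was at 5.16, 6.84 and 10.6 FPKM in the PD14 libraries, 0.138, 0 and 0.0612 at PD15 and 17.7, 9.37 and 7.81 at PD16. The PD15 libraries held 2, 0 and 1 fragments. Its difference was -3.22 on the log2 scale (SE 0.25, limma adjusted p = 0.00136), whereas Ppih had means of 4.35, 5.29 and 5.48 FPKM and a difference of 0.14 (adjusted p = 0.883). Pcna-ps2 is 99.2% identical to Pcna, the sliding clamp of DNA replication. The level of Pcna-ps2 was 18.1, 11.5 and 25.8 FPKM at PD14, 2.97, 2.74 and 2.82 at PD15 and 28.4, 14.8 and 8.57 at PD16. All PD15 values were under 3 FPKM, and the other days spread widely, with a difference of -2.18 on the log2 scale (SE 0.32, limma adjusted p = 0.0337). Pcna itself had means of 71.0, 97.9 and 91.8 FPKM and a difference of 0.28 (adjusted p = 0.281). Gm5837, 99.3% identical to the helicase gene Ruvbl1, was lower by -1.65 (adjusted p = 0.0201), and Ruvbl1 had 0.21 (adjusted p = 0.254).

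The values of such copies depend on how the authors' counting placed fragments that fit both genes, and they are uncertain for that reason. Of the 27 called genes with a transcript in GENCODE M21, 13 (48.1%) had a copy elsewhere at 95% identity or more over at least 200 bases, against 15.0% of 14686 tested genes, 21.1% of peak genes and 14.0% of trough genes. Pcna-ps2 kept its call in 4 of the 9 fits without 1 library, and lost it without any PD15 library, PD14 replicate 3 or PD16 replicate 2 (adjusted p up to 0.160), and Gm5837 kept its call in 7, all but those without PD15 replicate 1 or 2 (up to 0.108). The remaining lower calls were AC125149.4, a gene model on the unplaced scaffold GL456210.1 (-1.67, adjusted p = 0.00168), and 2 unannotated loci, which kept their calls in 0 and 3 of the 9 fits without 1 library. The part of fragment placement in these troughs was not tested.

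**Figure D4:**
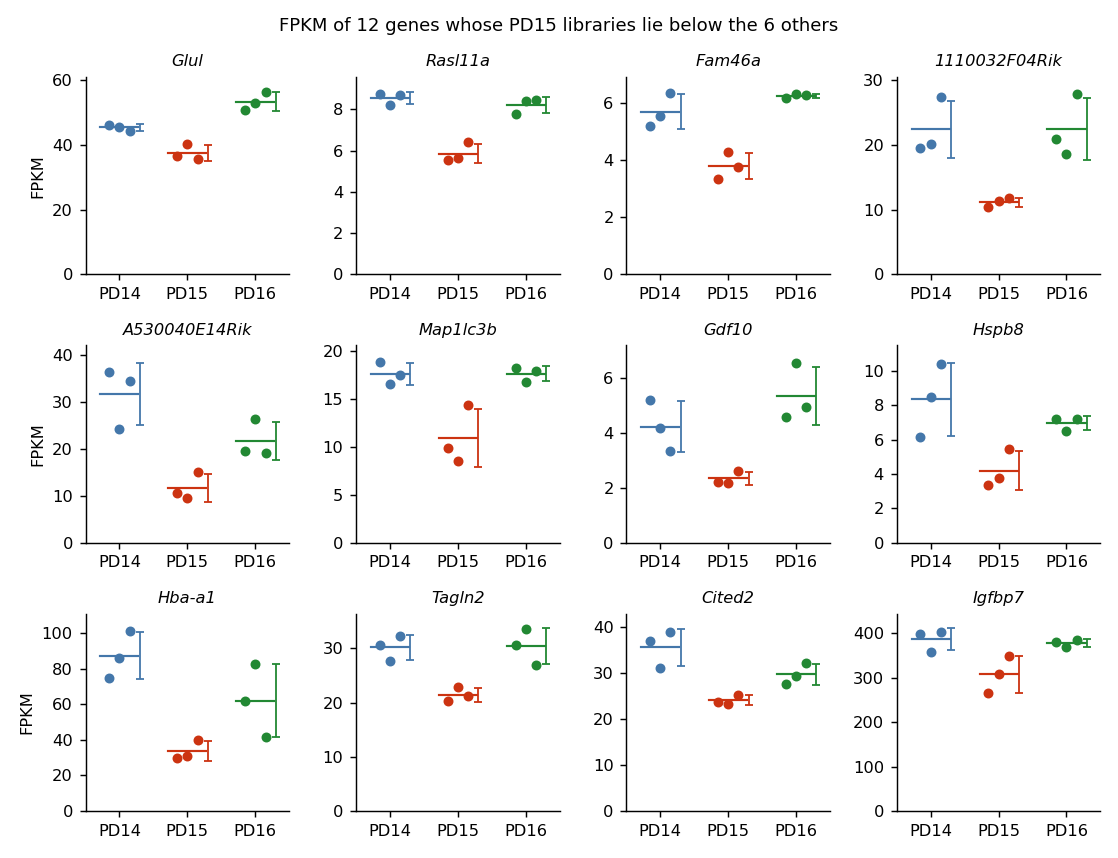
FPKM in each of the 9 libraries (dots) for 12 trough genes, 5 called (Glul, Rasl11a, Fam46a, 1110032F04Rik and A530040E14Rik) and 7 not called, with each day's mean (line) and SD (bar, 3 libraries). In each panel the 3 PD15 dots lie below the 6 others. Rasl11a stays between 5.53 and 6.405 FPKM at PD15, and for Hba-a1 the PD16 replicate 3 library lies close above them.

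The 3 lower calls whose libraries overlapped followed a step in place of a trough. Retsat, which saturates retinol, dropped after PD14. At PD14 the libraries held 13.1, 10.1 and 13.2 FPKM of Retsat, at PD15 3.34, 3.35 and 4.86, and at PD16 5.31, 4.57 and 6.75. PD15 and PD16 lay together below PD14, and the PD16 minus PD14 difference was -1.01 (limma adjusted p = 0.0151). Eno1b, a retrocopy of the enolase gene Eno1 at 99.5% identity, had the same order. In FPKM, Eno1b ran 12.1, 15.1 and 15.1 over the PD14 libraries, 5.95, 5.24 and 5.57 over those of PD15 and 6.57, 6.92 and 5.39 over those of PD16. Here the end difference was -1.05 (limma adjusted p = 0.00419), while Eno1 itself had means of 40.01, 39.2 and 44.6 FPKM. Gm9961, which overlaps Cpped1 on the opposite strand, stepped up after PD15 instead. Gm9961 measured 1.27, 2.04 and 1.88 FPKM at PD14, 1.44, 1.31 and 1.40 at PD15 and 5.22, 4.43 and 4.46 at PD16. PD14 and PD15 overlapped, and the end difference was 1.07 (limma adjusted p = 0.00576). Retsat kept its call in 4 of the 9 fits without 1 library (adjusted p up to 0.175) and Eno1b and Gm9961 in 2 each (up to 0.126 and 0.137), and each of the 3 lost it without PD15 replicate 1, PD15 replicate 2, PD14 replicate 3 or PD16 replicate 1.

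The comparison of PD16 with PD14 was not used to choose the members and was tested separately. It called 659 genes, 4.25% of those tested. Among the 375 peak genes it called 8 (2.13%), 3 higher and 5 lower at PD16, and among the 336 trough genes 4 (1.19%), 2 in each direction, so both shares lay under the background. A gene with different levels at the end days has less room for a gap on both sides, so the rule itself holds this share down. The peak genes lower at PD16 than at PD14 were Akr1c18 (by -1.48, adjusted p = 0.0148), Rln3 (-0.51, 0.0256), Kctd14 (-0.40, 0.0487) and 2 unannotated loci. Those higher were Gm13680, a copy of the ribosomal protein gene Rps4x (1.05, 0.0237), Gm4535 and 1 unannotated locus. Of the trough genes, Grb14, an adaptor that dampens insulin receptor signals (0.61, 0.0292), and Zmat1 ended higher, and Pcdh8, a protocadherin (-0.53, 0.0329), and Rprml ended lower.

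Many members with a known role did not pass the test, and they are given as values, chosen after these were seen. Among the peak genes, Rpl35a and Rpl21, proteins of the large ribosomal subunit, had the widest differences. Rpl35a was at 6.84, 31.3 and 7.77 FPKM in the PD14 libraries, 34.1, 35.6 and 40.6 at PD15 and 9.17, 9.57 and 6.14 at PD16. PD14 replicate 2 stood near the PD15 libraries, and the difference was 1.78 on the log2 scale (SE 0.39, limma adjusted p = 0.115). The level of Rpl21 was 10.5, 13.2 and 10.5 FPKM at PD14, 22.8, 27.4 and 35.8 at PD15 and 22.1, 14.8 and 9.37 at PD16. PD16 replicate 1 lay just under the PD15 libraries, and the difference was 1.07 on the log2 scale (SE 0.23, limma adjusted p = 0.103). The 85 ribosomal protein genes tested had a median of 0.010, with the other sign in 3 of 18 other settings. Of these 85 genes 2 were peak genes, a number too small to set apart from the 2.42% over all genes tested. Rpl21 shares sequence at 95% or more with 61 other gene models, so its value is uncertain. Hist1h4i, a replication-dependent histone H4 gene, had means of 2.73, 5.11 and 2.91 FPKM (0.65, adjusted p = 0.132), and 9 of the 12 such histone genes tested were higher, with a median of 0.24 and 0 called.

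Other peak genes short of the threshold were single genes of unlike roles. Slc27a6, which takes up fatty acids, had means of 5.90, 7.97 and 4.05 FPKM (0.61, adjusted p = 0.0636). Calb1, the calcium buffer calbindin, had 1.71, 3.12 and 1.91 FPKM (0.54, adjusted p = 0.0848), and Cst8, a cystatin of the reproductive tract, had 4.19, 8.84 and 5.31 FPKM (0.79, adjusted p = 0.0636). Jak3, a kinase of cytokine receptors, had 2.48, 6.47 and 3.66 FPKM with PD15 replicates from 4.23 to 9.24 (0.86, adjusted p = 0.167). Sox18, a transcription factor of vessel growth, had 35.4, 49.5 and 42.5 FPKM (0.34, adjusted p = 0.0729), while 11 of the 13 endothelial markers were lower with a median of -0.072. Pou5f1, a factor of germ cells and the early embryo, had 12.8, 14.5 and 10.4 FPKM (0.31, adjusted p = 0.108).

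The trough genes short of the threshold included a run of neighbours. Fbxo31, an F-box protein that marks cyclins for breakdown, Map1lc3b, the LC3B protein of autophagosome membranes, and Zcchc14, a zinc finger protein, were trough genes. They lay side by side at chr8:121549440-121652901, a span set by their own ends and picked after the values were seen. Gm27030, tested at chr8:121654054-121654517, was not a member (-0.37, limma adjusted p = 0.419). Of all genes tested, 2.17% were trough genes. At PD14 the libraries held 18.9, 16.6 and 17.5 FPKM of Map1lc3b, at PD15 9.87, 8.57 and 14.4, and at PD16 18.2, 16.8 and 18.0. PD15 replicate 3 lay between the other PD15 libraries and the rest. Its difference was -0.67 on the log2 scale (SE 0.13, limma adjusted p = 0.0729), and those of Fbxo31 and Zcchc14 were -0.58 and -0.61 (adjusted p = 0.0636 for both). In all 3 genes the order of the PD15 libraries was the same, with replicate 2 lowest and replicate 3 highest. Map1lc3b and Zcchc14 overlap at their ends on opposite strands.

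Further trough genes were again single genes. Among 47 matrix and hyaluronan genes 1 was a trough gene and 2 were peak genes, and among 34 collagen genes 1 was a trough gene, against 2.17% trough and 2.42% peak genes among all genes tested, and numbers this small cannot be set apart from those shares. Gdf10, a growth factor of the BMP group, had means of 4.24, 2.34 and 5.36 FPKM (-0.78, adjusted p = 0.0622). Igfbp7, an abundant binding protein of insulin-like growth factors, had 387, 308 and 378 FPKM (-0.32, adjusted p = 0.212), with PD15 replicates of 266, 309 and 349. Cxcl12, a chemokine, had 17.4, 12.9 and 15.6 FPKM, Vegfd, a lymph vessel growth factor, had 7.01, 5.28 and 7.36, and Mfap5, a microfibril protein of stroma, had 10.1, 7.91 and 11.8 (adjusted p = 0.177, 0.182 and 0.0729). Of 13 stromal markers 3 were higher and the median was -0.12, and of the collagen genes 11 were higher and the median was -0.089. Their summed levels overlapped between the days, at 1001 to 1095, 851 to 1021 and 1019 to 1040 FPKM for the stromal markers.

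Inside cells, Hspb8, a small heat shock protein, had 8.35, 4.20 and 6.99 FPKM (-0.74, adjusted p = 0.10002), Tagln2, an actin-binding protein, had 30.2, 21.5 and 30.4 (-0.47, 0.0599), and Cited2, a partner of CBP and p300, had 35.6, 24.1 and 29.8 (-0.42, 0.0695). Ramp3, which directs adrenomedullin receptors, had 4.25, 2.61 and 7.26 FPKM (-0.83, 0.114). H2-Q4 and H2-Q7, class I histocompatibility genes with many near copies, had -1.06 and -0.63 (0.135 and 0.207).

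Most red cell genes were lower at PD15 than the average of both other days, and none passed the test. In FPKM, Hba-a1 ran 74.9, 85.9 and 101 over the PD14 libraries, 29.8, 31.2 and 40.1 over those of PD15 and 62.2, 82.8 and 41.4 over those of PD16. For Hba-a1, an alpha globin gene that is 99.8% identical to Hba-a2, PD16 replicate 3 nearly met the PD15 libraries, and the difference was -1.09 on the log2 scale (SE 0.19, limma adjusted p = 0.0674). Of 7 red cell markers tested, 6 were lower, 1 was a trough gene and 0 were called, and the median was -0.47. A count of 1 in so short a list cannot be set apart from the 2.17% trough genes over all genes tested. The sum of the red cell markers was 177 to 229 FPKM at PD14, 126 to 142 at PD15 and 127 to 187 at PD16. All 4 globin genes tested were lower, by -0.25 to -1.09. How blood content moved with the other trough genes was not tested.

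For the gene groups the study turned to, the members were single genes, in lists too short to set their count apart from the shares over all genes tested (2.42% peak and 2.17% trough genes). Of 25 tight junction genes, Cldn4, a claudin that seals epithelia, was a peak gene at means of 6.90, 8.15 and 5.84 FPKM (0.32, adjusted p = 0.121), and the median was -0.015. None of 22 ion pump genes was a member. Of 4 aquaporins tested, Aqp12 was a peak gene at 1.46, 2.67 and 1.86 FPKM (0.47, adjusted p = 0.0643), and Aqp1, the abundant one, had 14.5, 13.2 and 11.8. Of 48 mTOR pathway genes, Flcn, a regulator of mTORC1 at the lysosome, was a trough gene at 9.15, 7.24 and 9.27 FPKM (-0.32, adjusted p = 0.193), and the median was -0.0034. None of the 7 natriuretic peptide genes was a member, with a median of -0.077, and Npr2, the CNP receptor, had 22.0, 22.7 and 28.6 FPKM. No gene of these 5 groups was called, and the medians of the tight junction, ion pump, aquaporin and mTOR lists changed sign in 3 to 4 of 18 other settings.

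Of 50 DNA replication genes 40 were higher, with a median of 0.040 that changed sign in 1 of 18 other settings, and 0 were members. Over all genes tested 48.8% were higher, 2.42% were peak genes and 2.17% trough genes. The member counts in the lists of this paragraph are too small to set apart from those shares. Of 25 cholesterol synthesis genes 4 were higher, with a median of -0.064, and all 12 smooth muscle markers were lower, with a median of -0.072. Among 36 immediate early genes Klf6 and Fosl2, transcription factors induced by growth signals, were trough genes at -0.31 and -0.35 (adjusted p = 0.0999 and 0.149), and among 21 clock genes Nfil3 was one at -0.16 (0.219). Of 33 glycolysis and hypoxia genes, Pdk1, which turns pyruvate away from the mitochondrion, was a peak gene at 4.77, 6.89 and 4.29 FPKM (0.52, 0.134), and Pfkp, a phosphofructokinase, was a trough gene at 2.81, 2.27 and 3.09 FPKM (-0.27, 0.293). Among the 81 nuclear genes of oxidative phosphorylation, Atp5e was a peak gene at 46.5, 63.8 and 42.4 FPKM (0.52, 0.0636) and Sdhc a trough gene (-0.21, 0.193).

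**Figure D5:**
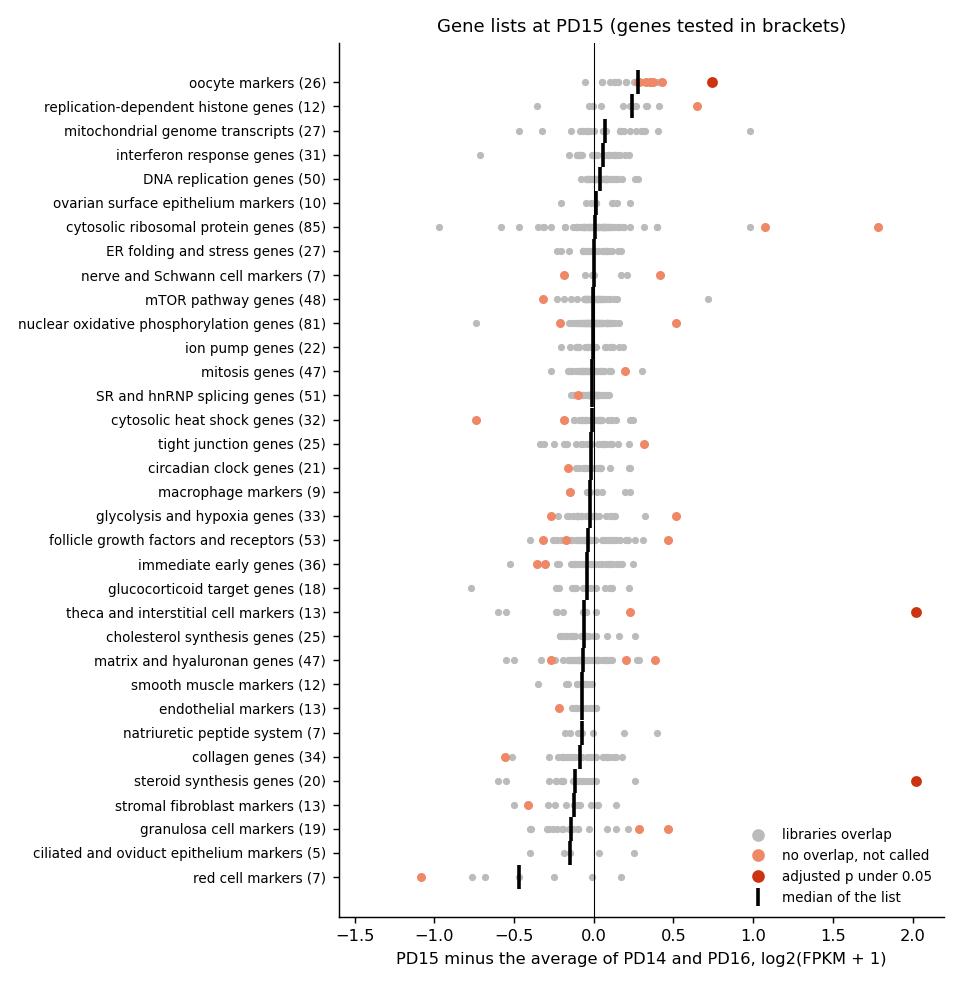
PD15 difference on log2(FPKM + 1) for the tested genes (dots) of the 34 gene lists with at least 5 such genes, with the median of each list as a bar and its number of genes in brackets. The oocyte markers have the highest median at 0.28 and the red cell markers the lowest at -0.47. Akr1c18 and Nlrp5 are the only calls among the listed genes.

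The kinds of gene among the members differed between the directions. Of 756 tested loci without an identifier, 71 were peak genes (9.39%) and 19 trough genes (2.51%). Of 12486 protein coding genes, 230 were peak genes (1.84%) and 275 trough genes (2.202%). Of 932 pseudogenes tested, 28 were peak genes (3.00%) and 12 trough genes (1.29%), and of 797 long noncoding RNAs 34 (4.27%) and 19 (2.38%). The shares over all genes tested were 2.42% peak and 2.17% trough genes. Of the peak genes 58.9% had a mean under 5 FPKM, against 44.6% of trough genes and 39.5% of all genes tested. The part of abundance in the number of members was not tested.

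Members also lay near each other. Of 299 peak genes with a position, 54 (18.1%) had another peak gene within 250 kb, against 9.58% of other tested genes with a peak gene that near. For trough genes these shares were 77 of 314 (24.5%) and 12.8%. Runs of at least 3 included Khdc1a, Gm2709 and Khdc1b on chromosome 1, and Nek4, Snord69 and Sema3g among 14 tested genes on chromosome 14. Nek4, a kinase of the cell cycle family, had -0.70 (adjusted p = 0.0695). At the border of the rule, the peak genes Fam167a, Fbxw28 and Ippk had differences of 0.34, 0.28 and 0.19, and Dnajc27, Macrod2 and 1 unannotated locus, which just missed it, had 0.18, 0.17 and 0.27. The trough genes Hnrnpa1, Kctd9 and Dlc1 had -0.098, -0.18 and -0.18, and Mir3076, Gm13537 and Gm24610, tied at 0 FPKM with another day and therefore outside, had -0.45, -0.84 and -0.93.

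The number of calls rested on single libraries. Without PD15 replicate 1, 4 genes were called higher and 3 lower, all among the 36, and without PD15 replicate 2, 6 and 8, of which 9 were among them. Without PD14 replicate 1, 49 were called higher and 33 lower, with 34 of the 36 among them. Leaving out any other library gave 14 to 20 calls higher and 11 to 20 lower. The calls that held throughout included Akr1c18, Akr1c19, Rln3, the unannotated locus with the largest rise, AC125149.4 and Gm11585.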

How the data were processed

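The authors deposited 1 table of FPKM per library, made from 9 libraries of ovary RNA (3 per day, NEBNext Ultra kit). They entered the analysis without rescaling. The submitters' processing notes name HISAT2 2.0.5 and mm10, and the annotation is not given in the sources used here. GENCODE M21, of the same assembly, gave positions, exon lengths and copies for 50462 of the 52025 identifiers. Depth came from the step of 1 fragment in low FPKM, since 94.2% to 94.7% of values of up to 20 fragments were whole within 0.02 fragments.

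Genes with a mean above 1 FPKM on at least 1 day (15495) were tested on log2(FPKM + 1), a pseudocount of 1, with limma 3.58.1 (R 4.3.3, intensity trend) across all genes, two-sided, over all 9 libraries, with the PD15 mean against the average of the other means and with PD16 against PD14. P-values were adjusted by Benjamini-Hochberg with a threshold of 0.05. The code was tested on simulated data. Python 3.11.15, pandas 2.3.3, NumPy 2.4.6 and Matplotlib 3.10.9 served for the rest.

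The members, gene lists and tests were chosen with earlier results of these data known. By rule, the text names the called genes (the 12 largest rises and falls without overlap), the called or else most abundant genes of the lists it describes, and the 3 genes on each side of the border of overlap. Other genes were named after their values were seen, and a few genes that the rule covers are not reported here. Alternatives covered pseudocount, filter, scaling, limma settings, a replicate block, both steps required, and each library left out.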

Additional observations from a re-analysis of the deposited data

How the results depend on the processing

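No gene called in the contrast turned its direction in any setting, but single list members with small differences did, and so did list medians near 0, in 1 to 5 of 18 settings for the tight junction, ion pump, aquaporin, mTOR, macrophage, DNA replication, interferon response and ribosomal protein lists. Against 20 genes called higher at PD15, 12 were called with FPKM above 1 required in every library, 10 with a mean above 5 and 54 with array quality weights. Against 16 called lower, 7 were called when every gene above 0 was tested, 10 with FPKM above 1 in every library, with a mean above 5 or with both steps required, 30 with the same FPKM total in each library and 60 with array quality weights. Without 1 library the counts ran from 4 (PD15 replicate 1) to 49 (PD14 replicate 1) higher and from 3 to 33 lower, by the same libraries, and without PD15 replicate 2 they were 6 and 8. The genes with no overlap numbered 593 above and 506 below with every gene above 0, 174 and 204 with a mean above 5, and 434 to 896 and 427 to 860 without 1 library, with 611 and 602 without PD15 replicate 1, 682 and 683 without replicate 2 and the most without replicate 3. The cause of these shifts was not tested. With the replicate number as a block, 15 genes were called higher and 14 lower, and 21 of the 36 calls were among them, with Nlrp5, Iglc3, Rasgef1b, Glul, Eno1b, Gm9961, A530040E14Rik and Pcna-ps2 among those not called. Libraries of the same number did not deviate together over all genes (correlations of -0.214 to 0.159), so these values gave no sign that the numbers pair the ovaries. A link limited to some genes would not show in them. With 3 ovaries a day and 20.4 to 28.7 M fragments each, genes near 1 FPKM rest on few fragments.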

Other observations

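Further trough genes with wide differences did not pass the limma test. Trim12c, a gene of the antiviral TRIM group that shares sequence with 3 other genes, had means of 5.85, 2.08 and 7.82 FPKM at PD14, PD15 and PD16 (-1.36, adjusted p = 0.0643), and Zfp641, a zinc finger gene, had 5.47, 2.48 and 7.87 FPKM (-1.08, adjusted p = 0.0808). Zpld1, which codes for a protein with a zona pellucida-like domain, had 31.5, 13.6 and 23.4 FPKM (-0.94, adjusted p = 0.196). Thy1, a surface protein of stromal and immune cells, had 5.47, 3.69 and 5.17 FPKM (-0.43, adjusted p = 0.0636). Among further peak genes, Cdo1, an enzyme of cysteine breakdown, had 29.0, 37.8 and 24.6 FPKM (0.48, adjusted p = 0.113), and Scara5, a ferritin receptor, had 15.9, 18.7 and 12.03 FPKM (0.41, adjusted p = 0.0754).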
